A study of Rattus norvegicus with 16 samples.

Results

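Superoxide dismutases, catalase and peroxiredoxins are the enzymes that dispose of superoxide and hydrogen peroxide, and the RNA of 10 of them (Sod1, Sod2, Sod3, Cat and Prdx1 to Prdx6) was followed in rat liver in sepsis. The members were chosen by enzyme family from their gene symbols, with earlier results of these data known. All 10 were found among the 17055 gene symbols counted.

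The livers came from male Sprague-Dawley rats aged 10 weeks, all mechanically ventilated with oxygen and sampled 8 h after celiotomy. Sepsis was produced by cecal ligation and puncture, in which the cecum is tied and pierced, and control rats had their cecum lifted out and put back. The Isoflurane-Sepsis group (libraries 1 to 4) and the isoflurane control group (libraries 5 to 8) were induced and maintained with isoflurane, whereas the Propofol-Sepsis group (libraries 9 to 12) and the propofol control group (libraries 13 to 16) were induced with ketamine and xylazine and then received propofol. Each of the 16 libraries pooled 3 rats, 48 rats in all, so the spread between libraries is one between pools. A comparison between anesthetics therefore also compares induction drugs. It also compares sets of libraries, because the tables of the isoflurane and propofol libraries carry different codes in their names, and these cannot be told apart.

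Superoxide dismutases turn superoxide into hydrogen peroxide and oxygen. Sod1 is the copper-zinc enzyme of the cytosol, Sod2 the manganese enzyme of the mitochondrial matrix and Sod3 the secreted form. Catalase, encoded by Cat, breaks down hydrogen peroxide in peroxisomes, which are abundant in hepatocytes. Peroxiredoxins reduce peroxides through a reactive cysteine. Prdx1, Prdx2 and Prdx6 are mainly cytosolic, Prdx3 is mitochondrial, Prdx4 resides in the endoplasmic reticulum, and Prdx5 is found in mitochondria, peroxisomes and cytosol. Most are recycled by thioredoxin, while Prdx6 draws on glutathione. Sod2 is a known target of the inflammatory transcription factor NF-kB, and Prdx1 of the oxidative stress regulator Nrf2, the product of Nfe2l2.

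The promoter sequences of Sod2 and Cat, the members that changed most, and of Prdx1, the Nrf2 target named above, are shown. Regulators of this kind act at promoter sites. RefSeq promoters matched 8 of the 10 members, with Sod3 and Prdx6 as the exceptions. They are on the assembly GRCr8, not on rn5, the build named in the submitters' notes. Each is the 250 bases before the annotated start, written 5′ to 3′ on the strand of the gene. Capitals mark matches on either strand to AP-1 (TGANTCA), the core of the antioxidant response element (TGACNNNGC), the GC box (GGGCGG), the CCAAT box (CCAAT), the TATA box (TATAAA) and the degenerate NF-kB consensus, which was searched for after an exact form of it had matched no member window. The windows are chr1:50050169-50050418 for Sod2 (minus strand), chr3:110329527-110329776 for Cat (minus strand) and chr5:135383656-135383905 for Prdx1 (plus strand).
Sod2: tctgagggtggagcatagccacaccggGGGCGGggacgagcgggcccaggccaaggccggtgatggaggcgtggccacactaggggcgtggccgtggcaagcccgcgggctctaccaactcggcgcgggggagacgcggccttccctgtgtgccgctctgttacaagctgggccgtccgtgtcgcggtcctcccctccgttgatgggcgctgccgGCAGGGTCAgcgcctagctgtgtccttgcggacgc
Cat: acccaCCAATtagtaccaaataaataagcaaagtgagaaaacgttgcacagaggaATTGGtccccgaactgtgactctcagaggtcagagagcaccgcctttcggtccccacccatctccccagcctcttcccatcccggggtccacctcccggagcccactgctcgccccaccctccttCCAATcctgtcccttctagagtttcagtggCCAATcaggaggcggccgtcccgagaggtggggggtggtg
Prdx1: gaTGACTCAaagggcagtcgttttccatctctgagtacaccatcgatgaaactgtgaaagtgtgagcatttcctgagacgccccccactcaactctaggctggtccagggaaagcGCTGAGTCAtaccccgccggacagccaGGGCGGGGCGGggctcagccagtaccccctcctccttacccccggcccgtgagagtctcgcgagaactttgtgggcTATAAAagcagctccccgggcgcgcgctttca
The Sod2 window held 1 GC box, 223 bases before the start, and 1 match to the antioxidant response core, 35 bases before it. Such a core was present in 10.1% of the 33469 rat promoter windows searched and a GC box in 30.5%. The Cat window held 4 CCAAT boxes, at 245, 195, 70 and 40 bases before the start, and 34% of all windows held at least 1. The Prdx1 window held 2 AP-1 motifs (248 and 133 bases before the start), a motif present in 6.34% of windows. The second of them lies within the antioxidant response core at 135 bases. It also held 2 overlapping GC boxes and a TATA box, and 12.9% of windows held a TATA box. Of the 8 member windows only that of Prdx3, which is not shown, matched the NF-kB consensus, 239 bases before the start, and 3.54% of all windows matched it.

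Reads counted on genes ranged from 14199422 to 49937173 per library. A member received between 161 reads (Sod3) and 40430 reads (Sod2) in a library. Levels are given as CPM (the gene's reads scaled to a common library size of 1e6 reads on genes, after TMM scaling by edgeR). They were not divided by transcript length, so levels are compared between groups and not between genes. All 10 hepatocyte markers, albumin among them, were detected in every group. In whole tissue, fewer cells of a type and less RNA per cell cannot be told apart.

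Sepsis raised Sod2 and lowered Cat under both anesthetics. With isoflurane, edgeR's quasi-likelihood test (called at an adjusted p below 0.05 over all genes tested) called 6 of the 10 members, Sod2 as higher and Sod1, Sod3, Cat, Prdx3 and Prdx6 as lower. Of all 10361 genes tested, 50.0% were called, so the members' share is near the background. With propofol, 6 of 10 were called where 42.1% of 10348 genes were, Sod2 as higher and Sod1, Sod3, Cat, Prdx1 and Prdx6 as lower. The median log2 fold change of the members was -0.14 with isoflurane and -0.15 with propofol, beside 0.0061 and -0.0016 over all genes. The libraries of sepsis and control did not overlap for 5 members with isoflurane (48.7% of all genes) and for 6 with propofol (42.2%).

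**Figure D1:**
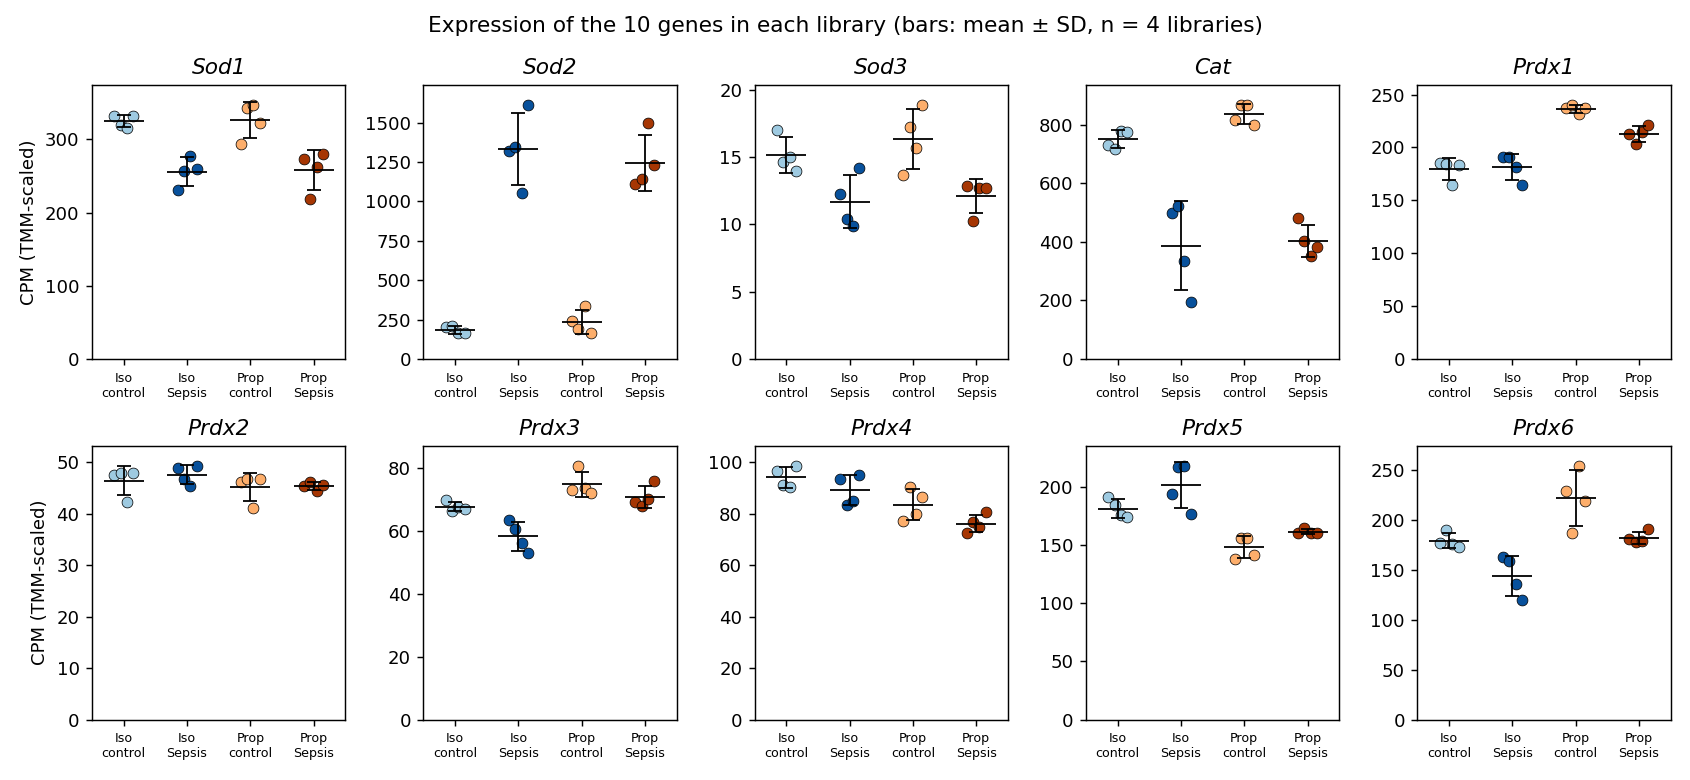
Level of each of the 10 genes in CPM (vertical axis, starting at 0, on a separate scale per gene) in the 16 libraries, grouped by anesthetic and sepsis. Points are libraries and bars are the mean ± SD of 4 libraries. The sepsis libraries of Sod2 lie between 1056 and 1611 CPM and the control libraries between 162 and 334 CPM, and those of Cat lie below all controls.

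Sod2 was at 1322, 1344, 1056 and 1611 CPM in the 4 Isoflurane-Sepsis libraries and at 205, 211, 166 and 165 CPM in the isoflurane controls. In the Propofol-Sepsis libraries it was at 1110, 1142, 1499 and 1229 CPM, against 243, 189, 334 and 162 CPM in the propofol controls. Every sepsis library was above every control library of either anesthetic, the lowest of the sepsis libraries being library 3 and the highest control library 15. The means were 1333 ± 227 CPM against 186 ± 24.6 CPM with isoflurane and 1245 ± 177 CPM against 232 ± 75.8 CPM with propofol (SD, n = 4 libraries each). The log2 fold change was 2.84 with isoflurane (standard error 0.145, 7.15-fold, adjusted p = 1.04e-05 by edgeR). With propofol it was 2.42 (standard error 0.209, 5.34-fold, adjusted p = 5.21e-05 by edgeR). From low to high, the group means ran from isoflurane control through propofol control and Propofol-Sepsis to Isoflurane-Sepsis. The neighbouring controls did not differ beyond their spread (log2 difference -0.32, 95% interval -0.72 to 0.08, adjusted p = 0.234 by edgeR), nor did the neighbouring sepsis groups (0.10, 95% interval -0.30 to 0.50, adjusted p = 0.705 by edgeR).

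Neutrophil and monocyte markers moved in the same direction as Sod2. Of 8 tested, 6 were called higher with isoflurane, where 25.7% of all genes were, and 5 with propofol, where 20.4% were. The shares of all genes called lower were 24.4% and 21.7%. The summed level of the 10 markers in the tables was 151 to 203 CPM in isoflurane controls and 1258 to 2077 CPM in Isoflurane-Sepsis, and 390 to 647 CPM against 1160 to 3280 CPM with propofol. Most of these sums was Lcn2, which hepatocytes also make in an acute phase response. Lcn2 alone was at 131 to 184 CPM in isoflurane controls and 1183 to 1975 CPM in Isoflurane-Sepsis. With propofol it was at 365 to 620 CPM in controls and 1105 to 3240 CPM in sepsis. Ly6c was at 0 in all groups. Itgam, an integrin of neutrophils and monocytes, was at 1.41 to 2.28 CPM and 7.63 to 18.8 CPM with isoflurane, and at 2.30 to 3.09 CPM and 6.08 to 10.0 CPM with propofol. Kupffer cell markers, from the resident macrophages of the liver, summed to 369 to 454 CPM in isoflurane controls and 416 to 557 CPM in Isoflurane-Sepsis, with 5 of 9 higher and 1 lower, and to 412 to 475 CPM and 358 to 440 CPM with propofol, with 1 of 9 higher and 1 lower. Lymphocyte markers summed to 2.60 to 3.34 CPM and 4.19 to 9.67 CPM with isoflurane, and to 4.27 to 5.30 CPM and 4.22 to 5.72 CPM with propofol. The part of these cells in the rise of Sod2 was not tested.

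Cat was at 497, 521, 333 and 195 CPM in the Isoflurane-Sepsis libraries and at 732, 718, 777 and 776 CPM in their controls. In the Propofol-Sepsis libraries it was at 480.5, 401, 351 and 383 CPM, against 815, 866, 866 and 799 CPM in the propofol controls. All 8 sepsis libraries were below all 8 controls, and Isoflurane-Sepsis library 4 was the lowest of the 16. Cat fell by 0.96 on the log2 scale with isoflurane (standard error 0.261, a fall of 48.5%, adjusted p = 0.0143 by edgeR), from 751 ± 30.5 CPM to 386 ± 152 CPM (SD, n = 4). With propofol it fell by 1.06 (standard error 0.0933, a fall of 51.9%, adjusted p = 5.63e-05 by edgeR), from 837 ± 34.7 CPM to 404 ± 55.1 CPM (SD, n = 4). The SD of the Isoflurane-Sepsis group was the widest for Cat among the 4 groups. Without library 4 the fall with isoflurane was 0.73, and was still called. The Cat means of the neighbouring sepsis groups did not differ beyond their spread (-0.06, 95% interval -0.51 to 0.38, adjusted p = 0.829 by edgeR). The 2 control groups did not pass the test either (-0.16, adjusted p = 0.626 by edgeR), although the isoflurane libraries were all below the propofol ones.

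Sod2 and Cat thus moved apart. Relative to its own controls, the Sod2 to Cat ratio of CPM was 14.8 times as high in Isoflurane-Sepsis, with libraries between 10.4 and 33.4 times. In Propofol-Sepsis it was 11.5 times as high, with libraries between 8.64 and 15.97 times. The ratio uses members of a single library, so the scaling of libraries cancels in it.

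**Figure D2:**
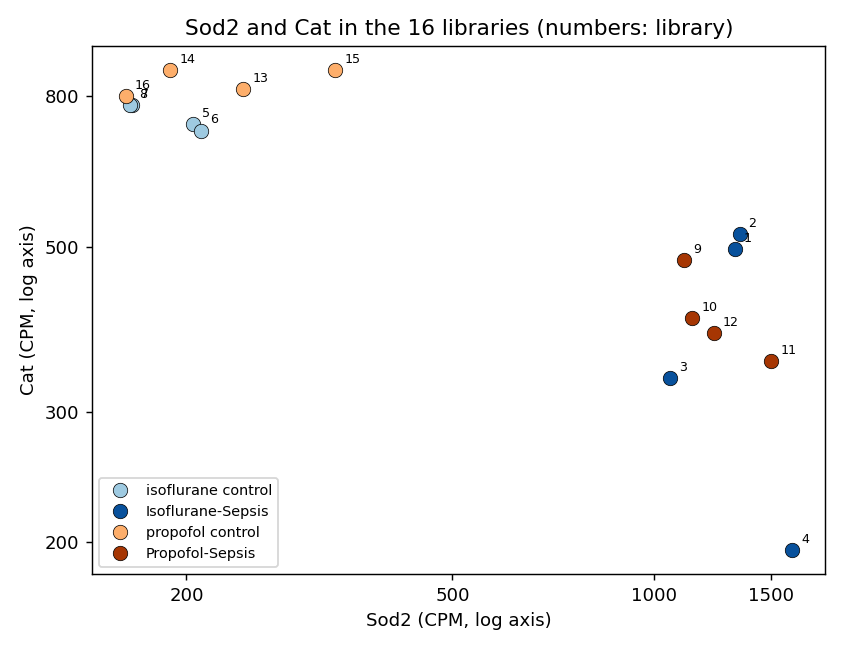
Cat against Sod2 in each of the 16 libraries, both in CPM on log axes, with library numbers beside the points and colours for the 4 groups. The 8 control libraries lie at the upper left, and the 8 sepsis libraries at the lower right, with library 4 at 1611 CPM of Sod2 and 195 CPM of Cat.

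Sod1 and Sod3, the other superoxide dismutases, were lower in sepsis. Sod1 was at 231, 257, 278 and 260 CPM in Isoflurane-Sepsis and at 332, 320, 315 and 332 CPM in isoflurane controls. It was at 273, 219, 262 and 280 CPM in Propofol-Sepsis and at 294, 343, 347 and 322 CPM in propofol controls. The groups did not overlap under either anesthetic. Sod1 fell by 0.34 on the log2 scale with isoflurane (standard error 0.0792, adjusted p = 0.00737 by edgeR) and by 0.34 with propofol (standard error 0.0897, adjusted p = 0.0126 by edgeR). Those falls correspond to 20.9% and 21.2%. The group order was Isoflurane-Sepsis, Propofol-Sepsis, isoflurane control, propofol control, and neither the sepsis pair (-0.01, 95% interval -0.19 to 0.16) nor the control pair (-0.01, 95% interval -0.18 to 0.17) differed beyond its spread.

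Sod3 was counted least, at 12.3, 10.4, 9.89 and 14.2 CPM in Isoflurane-Sepsis and at 17.0, 14.6, 15.0 and 13.96 CPM in isoflurane controls. Library 4 was above control library 8, so these groups overlapped. With propofol it was at 12.9, 10.3, 12.7 and 12.7 CPM in sepsis and at 13.6, 17.2, 15.7 and 18.9 CPM in controls, without overlap. Sod3 fell by 0.37 with isoflurane (standard error 0.122, adjusted p = 0.0308 by edgeR) and by 0.44 with propofol (standard error 0.116, adjusted p = 0.0137 by edgeR). The call with isoflurane was lost without library 2, 3, 5, 6 or 7.

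Among the cytosolic peroxiredoxins, Prdx6 was lower in sepsis under both anesthetics. It was at 162, 158, 136 and 120 CPM in Isoflurane-Sepsis and at 177, 190, 176 and 173 CPM in isoflurane controls, without overlap. In propofol libraries it was at 180, 178, 178 and 191 CPM in sepsis and at 229, 187, 254 and 219 CPM in controls, where library 14 was below the highest sepsis library. Prdx6 fell by 0.31 with isoflurane (standard error 0.100, adjusted p = 0.0289 by edgeR) and by 0.29 with propofol (standard error 0.0862, adjusted p = 0.0212 by edgeR). The first call was lost without library 3, 5, 6, 7 or 8 and the second without library 11, 13 or 15.

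Prdx1 was at 191, 191, 181 and 165 CPM in Isoflurane-Sepsis and at 186, 184, 164 and 184 CPM in isoflurane controls, which overlap. The log2 fold change was 0.02 (95% interval -0.15 to 0.19, adjusted p = 0.829 by edgeR). Under propofol it was at 213, 203, 215 and 221 CPM in sepsis and at 238, 240, 231 and 238 CPM in controls, and all sepsis libraries were lower. Prdx1 fell by 0.16 (standard error 0.0537, adjusted p = 0.0374 by edgeR), a call that survived the removal of library 15 but not that of any other single library, and that was also lost without a filter on low counts and in 1 fit of all 16 libraries.

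Prdx2, which is also abundant in red blood cells, was at 48.8, 46.8, 45.4 and 49.2 CPM in Isoflurane-Sepsis and at 47.5, 48.0, 42.2 and 47.9 CPM in isoflurane controls. It was at 45.3, 46.2, 44.4 and 45.5 CPM in Propofol-Sepsis and at 46.1, 46.6, 41.1 and 46.7 CPM in propofol controls. All groups overlapped. The log2 fold change was 0.04 with isoflurane (95% interval -0.11 to 0.19) and 0.0002 with propofol (95% interval -0.14 to 0.14). Erythroid markers, mainly hemoglobin genes, summed to 401 to 525 CPM in Isoflurane-Sepsis and 401 to 597 CPM in its controls, and to 422 to 578 CPM and 442 to 712 CPM with propofol.

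Prdx3, the mitochondrial peroxiredoxin, was at 63.3, 60.6, 55.9 and 53.0 CPM in Isoflurane-Sepsis and at 69.7, 66.1, 67.6 and 67.0 CPM in isoflurane controls. All sepsis libraries were lower, and Prdx3 fell by 0.21 on the log2 scale (standard error 0.0690, adjusted p = 0.0293 by edgeR). The call was lost without library 3, 5, 6, 7 or 8. Under propofol it was at 69.2, 67.9, 70.1 and 75.8 CPM in sepsis and at 72.8, 80.5, 73.5 and 71.9 CPM in controls, which overlap (log2 fold change -0.08, 95% interval -0.23 to 0.06, adjusted p = 0.305 by edgeR).

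Prdx5 was the one peroxiredoxin with a positive log2 fold change above 0.1 under both anesthetics, and neither was called. It was at 194, 217, 218 and 177 CPM in Isoflurane-Sepsis and at 191, 185, 175 and 174 CPM in isoflurane controls (log2 fold change 0.16, 95% interval -0.05 to 0.36, adjusted p = 0.175 by edgeR). Library 4 was the lowest of its group, and without it Prdx5 was called higher (log2 fold change 0.22). With propofol it was at 160, 165, 161 and 160 CPM in sepsis and at 138, 156, 156 and 142 CPM in controls. These do not overlap, and the log2 fold change was 0.12 (95% interval -0.02 to 0.26, adjusted p = 0.140 by edgeR).

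Prdx4, the peroxiredoxin of the endoplasmic reticulum, ranged from 83.6 to 95.03 CPM in Isoflurane-Sepsis and from 90.5 to 98.5 CPM in isoflurane controls. With propofol it ranged from 72.6 to 80.7 CPM in sepsis and from 77.3 to 90.5 CPM in controls. The groups overlapped in both cases, at a log2 fold change of -0.08 (95% interval -0.23 to 0.08) and -0.14 (95% interval -0.29 to 0.02).

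**Figure D3:**
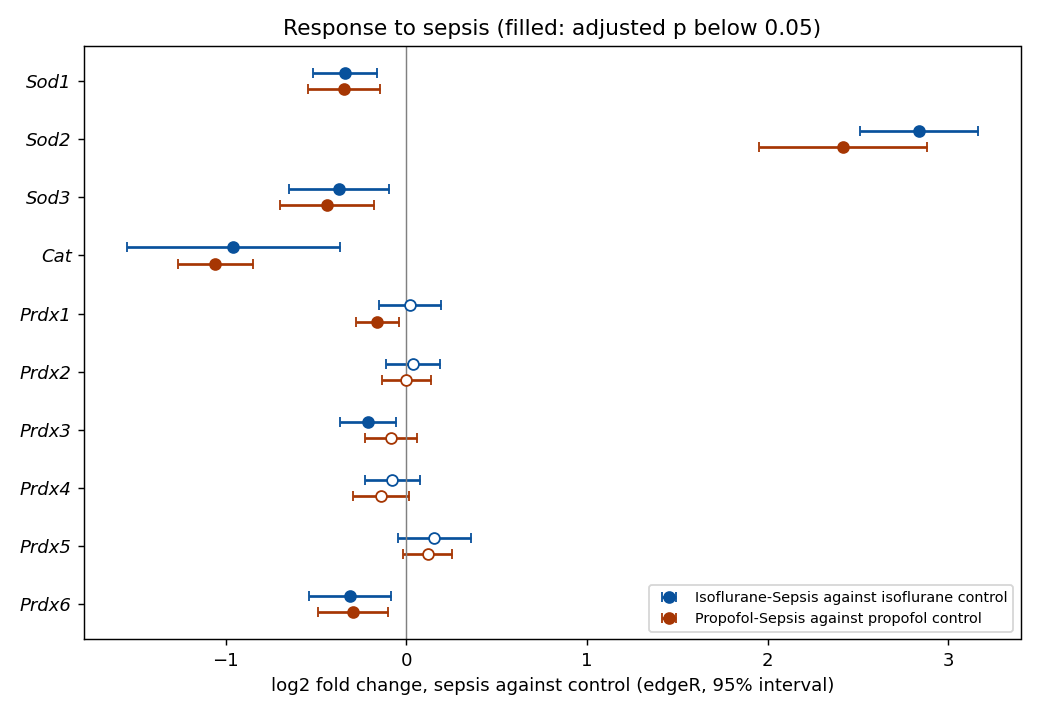
Log2 fold change of sepsis against control (horizontal axis) for each gene under isoflurane and propofol, with 95% intervals from the edgeR fits of 4 against 4 libraries. Filled points passed an adjusted p below 0.05. Sod2 stands at 2.84 and 2.42 and Cat at -0.96 and -1.06, and the other 8 genes lie within 0.45 of 0.

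Mitochondrial members (Sod2, Prdx3 and Prdx5) were set against the cytosolic ones (Sod1, Prdx1, Prdx2 and Prdx6) by the difference of their mean log2 CPM in each library. That difference was higher in sepsis by 1.07 with isoflurane (SD 0.064 among sepsis libraries and 0.069 among controls, n = 4 each). With propofol it was higher by 1.03 (SD 0.077 and 0.156, n = 4 each). Sepsis libraries lay between 0.95 and 1.15 above their own control mean, and control libraries within 0.20 of it. Most of the shift was that of Sod2. With Prdx3 and Prdx5 alone it was 0.12 with isoflurane, where libraries 4 and 7 overlapped, and 0.22 with propofol, without overlap. As the members were selected with earlier results known, the shift is a description. By gene, the mitochondrial log2 fold changes ran from -0.21 to 2.84 with isoflurane and from -0.08 to 2.42 with propofol, and the cytosolic ones from -0.34 to 0.04 and from -0.34 to 0.0002.

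**Figure D4:**
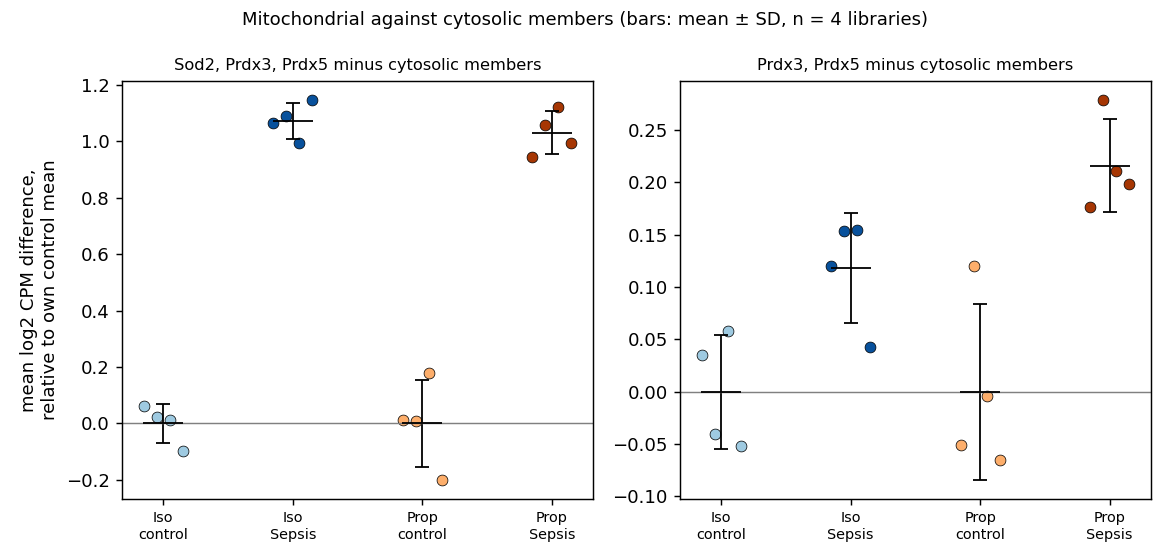
Mean log2 CPM of mitochondrial members minus that of cytosolic members in each library, relative to the mean of its own control group (vertical axes on different scales). With Sod2 (left panel) the sepsis libraries lie between 0.95 and 1.15, and with Prdx3 and Prdx5 only (right panel) between 0.04 and 0.28. Bars are the mean ± SD of 4 libraries.

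Whether the response to sepsis differed between the anesthetics was asked with an interaction term, isoflurane minus propofol, fitted to the 16 libraries together. No member was called by edgeR or by DESeq2, and 0 had an unadjusted p below 0.05 by edgeR, while 2.72% of 10621 genes were called. For Sod2 the difference was 0.42 (95% interval -0.15 to 0.98, adjusted p = 0.351 by edgeR) and for Cat 0.09 (95% interval -0.54 to 0.72, adjusted p = 0.869 by edgeR). Prdx1, called with propofol alone, differed by 0.17 (95% interval -0.02 to 0.36, adjusted p = 0.249 by edgeR). Prdx3, called with isoflurane alone, differed by -0.14 (95% interval -0.33 to 0.06, adjusted p = 0.370 by edgeR). For the remaining 6 members the estimates lay between -0.03 and 0.06. These intervals leave room for differences of the size of the smaller falls described above.

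Levels differed between the anesthetics for several peroxiredoxins. Between the control groups, 3 members were called, where 26.3% of all genes were. In isoflurane controls Prdx1 was lower by 0.40 (adjusted p = 0.000393 by edgeR) and Prdx6 lower by 0.31 (adjusted p = 0.0298 by edgeR) than in propofol controls, and Prdx5 was higher by 0.29 (adjusted p = 0.00759 by edgeR). The libraries of Prdx1, Prdx5, Cat and Prdx3 did not overlap (39.7% of all genes did not), and those of Prdx6 did. Prdx6 lost its call on removal of library 5, 7, 8, 13, 15 or 16. Between the sepsis groups, 5 members were called, where 38.6% of all genes were. Isoflurane-Sepsis was lower for Prdx1 (-0.23), Prdx3 (-0.28) and Prdx6 (-0.34) and higher for Prdx4 (0.23) and Prdx5 (0.32), with adjusted p between 0.0035 and 0.0156 by edgeR and no overlap of libraries for any of the 5 (25.1% of all genes did not overlap). Scaling by library totals moved the median of all genes to -0.15 between controls and to -0.16 between sepsis groups. On that scale Prdx5 was not called in either comparison nor Prdx4 between the sepsis groups, while the lower levels of Prdx1 and Prdx6 were called in both comparisons. Of the 10 hepatocyte markers, 7 were higher and 0 lower in isoflurane controls than in propofol controls (median log2 difference 0.39, sums of 174776 to 184862 and 135485 to 146352 CPM). Between the sepsis groups 5 were higher with isoflurane and 0 lower (median 0.33, sums of 156925 to 172988 and 134455 to 142331 CPM). Their part in these differences was not tested.

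Genes of peroxisome assembly, the Pex family whose products import proteins such as catalase into peroxisomes, were lower alongside Cat. With isoflurane 12 of the 15 tested were called lower and 0 higher, at a median log2 fold change of -0.59, where 24.4% of all genes were called lower. With propofol 12 of 15 were again called lower and 0 higher, at a median of -0.53, where 21.7% of all genes were. Pex16, which acts in the formation of the peroxisomal membrane, went from 37.2 ± 0.389 to 19.8 ± 2.73 CPM with isoflurane (SD, n = 4) and from 47.6 ± 6.88 to 27.6 ± 4.46 CPM with propofol. Pex10, a subunit of the ubiquitin ligase that recycles the import receptor, fell by 1.04 and by 0.69, and Pex6, an ATPase of the same recycling step, by 0.59 and by 0.42 (adjusted p between 0.000158 and 0.00375 by edgeR for these 2 genes). Pex14, of the docking complex, fell by 0.46 (adjusted p = 0.0288 by edgeR) and by 0.64 (adjusted p = 0.00121 by edgeR). The isoflurane call of Pex14 was lost without library 1, 2, 4, 6, 7 or 8. Pex13, also of the docking complex, fell with propofol (-0.81, adjusted p = 0.000122 by edgeR), was at -0.14 with isoflurane (adjusted p = 0.291 by edgeR), and differed between the responses by 0.66 (adjusted p = 0.0217 by edgeR), a call that was lost without library 6 or 12. Without library 4, 10 were lower and 1 higher with isoflurane.

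The summed level of the hepatocyte markers was 174776 to 184862 CPM in isoflurane controls and 156925 to 172988 CPM in Isoflurane-Sepsis, with 3 of 10 called lower and 1 higher. With propofol it was 135485 to 146352 CPM and 134455 to 142331 CPM, with 1 lower and 2 higher. Alb and other secreted proteins make up most of these sums. Of the less abundant markers, Cps1, of the urea cycle, was at 1454 to 5063 CPM in Isoflurane-Sepsis and 5150 to 6008 CPM in isoflurane controls. Ass1, also of the urea cycle, was at 945 to 2290 CPM and 2697 to 2960 CPM. Apoa1, an apolipoprotein, was at 970 to 1871 CPM and 2214 to 2570 CPM. For all 3 genes the sepsis libraries lay below the controls, and Ass1 and Apoa1 were called. Ttr, at similar levels, was also lower in all sepsis libraries, at 3557 to 4003 CPM against 4057 to 4257 CPM in controls. Tat (2512 to 3043 and 2321 to 2515 CPM) and Hpd (1175 to 1654 and 1382 to 1508 CPM), also less abundant, overlapped. Under propofol, Cps1 (2023 to 2869 and 2039 to 2374 CPM) and Ass1 (1238 to 1551 and 1209 to 1550 CPM) overlapped, as did Hpd and Ttr. There Apoa1 was lower in sepsis (843 to 954 and 1088 to 1552 CPM) and Tat higher (2252 to 2629 and 353 to 1274 CPM). Endothelial markers were lower for 5 of 7 with isoflurane and for 2 of 7 with propofol, where 1 was higher. Those of stellate and muscle cells were lower for 1 and higher for 4 of 10 with isoflurane. With propofol 4 were lower and 1 higher. Beside these counts and those of the hepatocyte markers, 24.4% of all genes were called lower and 25.7% higher with isoflurane. With propofol 21.7% were called lower and 20.4% higher. The part of a change in cell content in the falls of Cat and the Pex genes was not tested.

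Genes whose products make superoxide or hydrogen peroxide were counted beside the members. The phagocyte NADPH oxidase, which makes superoxide, had all 6 genes called higher with isoflurane, where 25.7% of all genes were, and 3 of 6 with propofol, where 20.4% were. Cybb, its catalytic subunit, went from 7.06 ± 1.12 to 21.3 ± 6.06 CPM with isoflurane (SD, n = 4) and from 12.1 ± 2.51 to 22.3 ± 3.79 CPM with propofol. Ncf1 (log2 fold change 1.72) and Ncf4 (1.94), cytosolic subunits, and the GTPase Rac2 (1.51) rose with isoflurane, and Ncf4 (1.04) and Rac2 (0.71) rose with propofol. Ncf1 was at 0.38 there (adjusted p = 0.0755 by edgeR), and its difference between the responses was 1.33 (adjusted p = 0.0111 by edgeR). That of Rac2 was 0.80 (adjusted p = 0.0486 by edgeR), and those of Ncf4 and Cybb were not called. The Rac2 call lies close to the limit of 0.05, and whether it holds under other processing or without single libraries was not tested. Between the control groups, 5 of the 6 were lower with isoflurane and 0 higher (median log2 difference -0.80), where 26.3% of all genes were called. Between the sepsis groups, 1 was higher with isoflurane and 0 lower (median 0.05), where 38.6% of all genes were called. Other oxidases that release hydrogen peroxide went in both directions, with 4 higher and 5 lower of 17 under isoflurane and 5 higher and 8 lower under propofol. Hao2, a peroxisomal hydroxyacid oxidase, fell by 0.69 and by 0.85, and Maob, the mitochondrial monoamine oxidase, fell by 0.83 and by 0.58 (adjusted p between 0.000769 and 0.00324 by edgeR for these 2 genes). Aox1, an aldehyde oxidase, and Pipox, the peroxisomal pipecolic acid oxidase, fell with propofol by 0.98 and by 1.31, and were at -0.78 and -0.64 with isoflurane, where neither was called. Of the polyamine oxidases, Smox rose by 2.59 with isoflurane and was at 0.61 with propofol, where it was not called. Paox rose by 1.11 with propofol and was at 0.44 with isoflurane, where it was not called. For Aox1, Pipox, Smox and Paox the difference between the responses was not called (adjusted p = 0.771, 0.222, 0.0798 and 0.108 by edgeR).

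**Figure D5:**
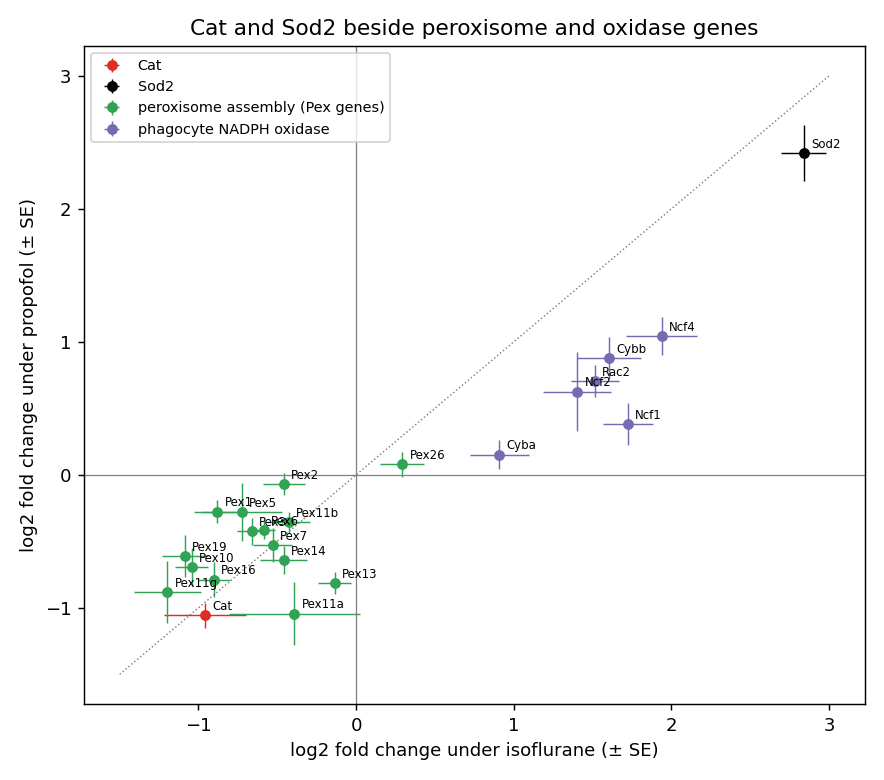
Log2 fold change of sepsis against control under propofol (vertical axis) and isoflurane (horizontal axis), with standard errors, for Cat, Sod2, 15 peroxisome assembly genes and 6 phagocyte NADPH oxidase genes; the dotted line marks equal change. Cat lies with most of the Pex genes at the lower left, and the oxidase genes, Sod2 and Pex26 at the upper right.

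Thioredoxin and glutathione genes, which supply the electrons for peroxiredoxins, were mixed. In the thioredoxin list 4 were higher and 3 lower of 10 with isoflurane, where 25.7% of all genes were higher and 24.4% lower. With propofol 0 were higher and 3 lower, where 20.4% of all genes were higher and 21.7% lower. Txn2, the mitochondrial thioredoxin that serves Prdx3, fell by 0.57 with isoflurane (adjusted p = 0.00309 by edgeR) and was at -0.21 with propofol (adjusted p = 0.111 by edgeR). Txnrd2, the mitochondrial thioredoxin reductase, fell with propofol by 0.24 (adjusted p = 0.0277 by edgeR) and was at -0.19 with isoflurane (adjusted p = 0.0582 by edgeR). The propofol call of Txnrd2 was lost without library 10, 11, 14, 15 or 16. Txnip, an inhibitor of thioredoxin, fell with isoflurane by 0.55 and was at -0.10 with propofol, where it was not called. For Txn2, Txnrd2 and Txnip the difference between the responses was not called (adjusted p = 0.173, 0.828 and 0.0583 by edgeR). Sesn1, a stress-response protein, fell by 0.38 and by 0.46. Txnrd1, the cytosolic reductase, rose with isoflurane by 0.34 (adjusted p = 0.0155 by edgeR) and fell with propofol by 0.63 (adjusted p = 0.0322 by edgeR), a difference of 0.96 between the responses (adjusted p = 0.0493 by edgeR). The isoflurane call of Txnrd1 was lost in 1 fit of all 16 libraries. Its difference between the responses was no longer called with RLE factors, with library totals, by limma-voom, without a filter, or on removal of any single library other than 1 and 16. Its propofol controls were at 363 ± 130 CPM (SD, n = 4) and the propofol call survived the removal of library 16 alone among the 8.

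In the glutathione list 2 were higher and 3 lower of 16 with isoflurane, and 2 higher and 4 lower with propofol, shares below or near those of all genes just given. Gclc, the catalytic subunit of the enzyme that limits glutathione synthesis, fell with propofol from 122 ± 28.6 to 48.0 ± 5.87 CPM (SD, n = 4, adjusted p = 0.000186 by edgeR), and was at 45.6 ± 4.59 and 44.3 ± 12.2 CPM with isoflurane. The difference between the responses was 1.31 (adjusted p = 0.0244 by edgeR), a call that was lost without library 7 or 12. Ggct, of glutathione breakdown, rose by 0.58 and by 0.44. Of the glutaredoxins, Glrx was higher by 1.39 and the mitochondrial Glrx5 lower by 0.47 with isoflurane, while with propofol they were at 0.12 and -0.09 and not called. The isoflurane call of Glrx5 was lost without library 3, 5, 6, 7 or 8. Gpx2, a glutathione peroxidase, rose with propofol, from 0.874 ± 0.161 to 3.84 ± 1.99 CPM (SD, n = 4). With isoflurane its log2 fold change was 0.43 and not called. For Glrx, Glrx5 and Gpx2 the difference between the responses was not called (adjusted p = 0.0968, 0.231 and 0.0717 by edgeR).

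Of 8 redox regulators, 3 were higher and 0 lower with isoflurane, where 25.7% of all genes were higher and 24.4% lower, and 3 were higher and 2 lower with propofol, where 20.4% and 21.7% were. Bach1, a repressor at antioxidant response elements, rose by 1.62 and by 1.30, Rela, a subunit of NF-kB, by 0.65 and by 0.26, and Foxo3, a transcription factor of stress responses, by 1.53 and by 0.81 (adjusted p between 0.000433 and 0.0123 by edgeR for these 3 genes). The propofol call of Foxo3 was lost in 1 fit of all 16 libraries. Nfe2l2 fell with propofol by 0.50 (adjusted p = 0.000892 by edgeR) and was at 0.31 with isoflurane (adjusted p = 0.0996 by edgeR). The difference between the responses was 0.79 (adjusted p = 0.0249 by edgeR), a call that was lost without library 6, 7, 8 or 12.

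The genes with profiles most like those of the members were sought among 9773 genes over the 16 libraries. The measure was the root mean square difference of log2 CPM, with 0.5 CPM added before the log, centred on each gene's mean. For Sod2 these were Cd44, an adhesion receptor (0.382), Il1b, an inflammatory cytokine (0.388), and Ccl7, a chemokine (0.401), beside a range of 3.31 for Sod2 itself. Ccl7 averaged 0.0390 CPM in isoflurane controls and 0.137 CPM in propofol controls, below the 0.5 CPM added, so its likeness depends on that value. For Cat they were Slc37a4, the glucose 6-phosphate transporter (0.147), Ntpcr, a nucleoside triphosphatase (0.168), and Gamt, an enzyme of creatine synthesis (0.170), beside a range of 2.15. Sod1 was nearest to Ranbp10, Apmap and Spryd7 (0.0879 to 0.0905), Sod3 to Col5a1, Mrpl44 and Pex7 (0.117 to 0.121), and Prdx6 to Cul2, Fto and Smcr7l (0.0858 to 0.0997). The 16 libraries share their groups, so these values describe likeness of pattern over the 4 groups as well as between libraries.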

How the data were processed

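RNA of rat liver was sequenced as 16 libraries of polyadenylated RNA, each from 3 pooled rats, from 1 end with a kit that keeps the strand. The authors deposited counts, whole numbers of reads per gene symbol, without normalization. STAR and rn5 are named in the submitters' processing notes, while the counting program, its strand setting and the annotation are unknown here. Reads matching several copies of a peroxiredoxin gene may have been left out.

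Entries that name no gene (21.61% to 25.39% of reads outside genes and 1.074% to 1.351% ambiguous) were left out. Total counts on genes were 14199422 to 49937173 per library, with a median of 19735458. Within groups, chi-square per degree of freedom between library pairs was 3.351 to 96.35, so no pair looked like a repeated library.

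Sepsis and control were compared within each anesthetic by the quasi-likelihood test of edgeR 4.0.16 (R 4.3.3) in fits of 8 libraries with TMM scaling, filterByExpr (minimum count 10, minimum total 15) and Benjamini-Hochberg adjustment over all genes. The interaction and the comparisons between anesthetics used 1 fit of 16 libraries. Intervals are 95% intervals from the same fits. TMM factors were 0.9204 to 1.094. Scripts were tested on simulated data. Alternatives were RLE size factors, library totals, DESeq2 1.42.0, limma-voom (limma 3.58.1), other filters, 1 fit of 16 libraries and each library left out. After seeing the data they were extended from the members to the named list genes in both sepsis comparisons. In the interaction they covered, beside the members, only Txnrd1, Gclc, Nfe2l2, Ncf1 and Pex13. Between controls they covered only Txnrd1, Gclc, Srxn1, Txn1, Gsr, Gclm, Slc7a11 and Gpx1 beside the members, and between sepsis groups the members alone. Single marker genes and genes of like profile were not included.

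The members and lists were chosen with earlier results of these data known. Named genes are the 10 members, the called genes with the 3 smallest adjusted p of each list in each sepsis comparison, and the 3 genes most like Sod2, Cat and each member called in both. Gpx1, Slc7a11, Gsr, Gclm, Srxn1, Txn1 and Pex26 were named after their values were seen. So were the marker genes Itgam, Lcn2, Ly6c, Alb, Cps1, Ass1, Apoa1, Ttr, Tat and Hpd. Some listed markers and regulators are not analysed here. Promoters are from RefSeq (GRCr8).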

Additional observations from a re-analysis of the deposited data

Results flagged for a closer look

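In groups of 4 libraries, a library was singled out where its gap to the nearest of the others divided by the group's whole range was above Dixon's 95% critical value. This was so for 5 of 40 combinations of member and group, and chance alone gives about 1 in 20. Library 10 of the Propofol-Sepsis group had Sod3 at 10.3 CPM, below the others, of which the nearest was 12.7 CPM. The same library had Prdx5 at 165 CPM, above the nearest at 161 CPM. Library 7 of the isoflurane control group had Prdx1 at 164 CPM (nearest 184 CPM) and Prdx2 at 42.2 CPM (nearest 47.5 CPM). Library 15 of the propofol control group had Prdx2 at 41.1 CPM, where the nearest was 46.1 CPM. Library 4, which had the lowest Cat of the 16, was not singled out by this measure. It had the lowest value of its group for 5 of the 10 members and the highest for 4.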

How the results depend on the processing

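Sod2, Cat and Sod1 kept their direction and their call in both sepsis comparisons under every alternative and with each library left out. With isoflurane the number of members called was 3 to 7 when a library was left out, with 3 without library 3, 5, 6 or 7, and with propofol it was 4 to 5. Over all genes the same removals called 4145 to 5668 with isoflurane and 3501 to 4291 with propofol. Leaving out Prdx5 gave a mitochondrial against cytosolic shift of 1.46 (isoflurane) and 1.39 (propofol), and leaving out Sod2 gave 0.118 and 0.216, an alternative chosen after seeing the data. Scaling by library totals called 3 members between the sepsis groups, and took the share of higher calls from 49.4% to 19.7% between controls, from 50.9% to 25.1% between sepsis groups and from 48.4% to 38.2% with propofol. It turned the sign of Prdx1 (-0.0462) and Prdx2 (-0.0307) with isoflurane, of Prdx2 with propofol (-0.0551), between controls (-0.105) and between sepsis groups (-0.0804), and of Sod2 between sepsis groups (-0.0506), none of them called. Without a filter Prdx1 with isoflurane was at -0.00929 and Prdx2 with propofol at -0.00944, and with a mean CPM of at least 1 Prdx2 with propofol was at -1.32e-05. In the interaction Sod1 was at 0.0035 with RLE factors and 0.0034 with DESeq2, and Cat at -0.0015 with limma-voom. The interaction was called for 289 genes, for 847 by DESeq2 and for 168 without a filter, and for 54 (without library 12) to 1615 (without library 1) when a library was left out.

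Leaving out a library also turned signs close to 0. With isoflurane the ranges were -0.0195 to 0.0702 for Prdx1, -0.00587 to 0.0504 for Prdx2 and -0.209 to 0.130 for Gclc, and with propofol -0.0472 to 0.0211 for Prdx2 and -0.104 to 0.266 for Glrx. In the interaction they were -0.0763 to 0.0428 for Sod1, -0.0473 to 0.133 for Sod3, -0.0876 to 0.313 for Cat, -0.0137 to 0.0710 for Prdx2, -0.0134 to 0.0839 for Prdx5 and -0.0959 to 0.0548 for Prdx6. Between controls they were -0.0547 to 0.0228 for Sod1 and -0.00304 to 0.0823 for Prdx2, and between sepsis groups -0.0842 to 0.0351 for Sod1, -0.00501 to 0.200 for Sod2, -0.161 to 0.0182 for Sod3 and -0.231 to 0.157 for Cat. The cause of these changes was not tested. No paired analysis was possible because the library numbers run from 1 to 16 and no number is shared between groups. Pools of 3 rats, 4 to a group, limit the precision of small changes, and Sod3 rests on as few as 161 reads in a library.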

Other observations

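Several genes that recycle peroxiredoxins or supply glutathione were lower in isoflurane controls than in propofol controls. Of 10 thioredoxin genes 5 were lower in isoflurane controls than in propofol controls and 0 higher, and of 16 glutathione genes 6 were lower and 1 higher, where 26.3% of all genes were called in either direction. The other 5 thioredoxin and 9 glutathione genes were not called. Txnrd1 was at 150 ± 3.68 CPM in isoflurane controls and 363 ± 130 CPM in propofol controls (SD, n = 4), and Gclc at 45.6 ± 4.59 and 122 ± 28.6 CPM. Srxn1, the sulfiredoxin that repairs over-oxidized peroxiredoxins, was at 56.3 ± 11.9 and 154 ± 95.9 CPM, with a log2 difference of -1.45 (adjusted p = 0.0173 by edgeR), a call that was lost without library 7 or 15. Thioredoxin itself, Txn1, differed by -0.30, a call that was lost without library 7, 8 or 14, and Gsr, the glutathione reductase, by -0.69. Gclm, the partner of Gclc, differed by -1.04 and the cystine transporter Slc7a11 by -1.80. Gpx1, the cytosolic glutathione peroxidase, was higher in isoflurane controls by 0.37 (adjusted p = 0.0309 by edgeR), a call that was lost on scaling by library totals, without a filter, or without library 7, 8, 13, 14 or 15. These groups also differ in induction drugs and library set, which cannot be told apart here.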
